A study of Rattus norvegicus and Bos taurus with 12 samples.

Results

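DNA replication and repair genes were followed in 2 cell systems, bovine right ventricular fibroblasts and adult rat ventricular myocytes (ARVM). Members were taken by gene symbol alone, from a fixed pattern that covers the origin licensing factors, the replicative helicase, the replicative polymerases and their clamp loader, the enzymes that supply deoxynucleotides, the E2F factors, the checkpoint kinases, homologous recombination, the Fanconi anemia pathway and part of mismatch repair. The pattern found 56 of the 7052 genes listed for ARVM and 28 of the 2115 genes listed for cardiac fibroblasts (Cfib), which together are 65 of 7989 symbols, with 19 in both tables. One of the 56, Uhrf1bp1l, shares only the start of its name with Uhrf1 and is a different gene. Both tables hold genes that the authors had selected for a difference between the groups, so a count of members past a threshold cannot be read as a property of the members. The share of all listed genes called is given at the first count of each table, and the counts by role are to be read against it. In the rat annotation, 96 protein-coding genes match the pattern by symbol, which takes in genes merely named after a member, such as Fancd2os and Mcm3ap, and 55 of them were listed. The clamp gene Pcna and the licensing gene Orc1 were among those not listed for ARVM.

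RNA was sequenced from 12 libraries in 4 groups of 3. The Cfib came from the right ventricles of control neonatal calves (CO), housed at ambient altitude, and of neonatal calves that had developed pulmonary hypertension (PH) under reduced atmospheric pressure. These were low passage cultures, grown to confluence and taken after a serum-free period. The ARVM came from Sprague Dawley rats and were either freshly isolated and untreated (libraries con4, con5 and con6) or held for 7 days in medium conditioned by PH fibroblasts (PH-CM, libraries ha2, ha209 and ha211). The PH-CM comparison therefore carries the time in culture together with the medium, and no ARVM library held for 7 days in another medium was analysed here. The sample labels give serum of cows from low or high altitude as the treatment in both systems, whereas the names used here follow the paper. The Cfib libraries of a group came from separate animals by the study's account. For ARVM neither the labels nor the methods say whether the 3 libraries of a group are separate animals or cultures, so each ARVM p-value measures the spread among these libraries, which may be technical.

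Replication origins are licensed when the origin recognition complex, CDC6 and CDT1 load the MCM2 to MCM7 ring onto DNA, and geminin blocks a further round of loading. The ring becomes an active helicase with CDC45 and the GINS complex, after which primase and the polymerases alpha, delta and epsilon copy the strands with the help of the clamp and its loader. Many of these genes are transcribed in a burst at the start of S phase under the E2F family, in which E2F1 is known mainly as an activator and E2F4 and E2F6 mainly as repressors. Adult rodent ventricular myocytes have largely left the cell cycle, whereas fibroblasts in culture can divide.

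Because E2F factors are the textbook regulators of the group, the rat promoters were searched for the letters TTTGGCGC, TTTCCCGC and TTTCGCGC on both strands, counting overlapping matches. RefSeq promoter windows on the GRCr8 assembly, from 250 bases before to 50 bases after the gene start, were held for 43 of the 56 ARVM members. At least 1 of the 3 words was present in 16 of 39 windows of members with a higher mean in PH-CM ARVM (41.0%) and in 2 of 4 windows of members with a lower mean (50%). The share was 1.72% among all 33469 windows of the same length and 3.24% among the windows of genes listed for ARVM, where it was 3.42% for higher and 3.03% for lower genes. The words were therefore found on both sides of the comparison, in Pole4 and Mcm7 as well as in members that rose. CCAAT was present in 56.4% of the windows of higher members, 37.5% of all windows and 36.8% of those of genes listed for ARVM. TTTGAA, the core letters of the CHR element of late cell cycle genes, was present in 12.8%, 18.3% and 11.3% of the same windows. A match of letters is a description and not a site in use.

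The 8 members with an E2F word within 100 bases before the start are given on the next lines, each as the 100 bases before the gene start, 5′ to 3′ in the direction of transcription, with the E2F letters in capitals. They are shown because they include both members that rose in PH-CM ARVM and the 2 members with such letters that fell. In Gins1 and Mcm2 the word and its reverse complement overlap and the capitals mark both matches.
Mcm2: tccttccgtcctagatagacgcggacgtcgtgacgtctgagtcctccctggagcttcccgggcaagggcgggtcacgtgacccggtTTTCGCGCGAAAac
Mcm5: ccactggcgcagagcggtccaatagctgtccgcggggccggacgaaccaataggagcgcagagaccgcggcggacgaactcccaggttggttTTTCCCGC
Gins1: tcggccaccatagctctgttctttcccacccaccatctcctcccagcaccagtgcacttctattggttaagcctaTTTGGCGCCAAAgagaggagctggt
Gins3: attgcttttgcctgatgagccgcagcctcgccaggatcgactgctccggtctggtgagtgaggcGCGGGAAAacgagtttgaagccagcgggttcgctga
Tyms: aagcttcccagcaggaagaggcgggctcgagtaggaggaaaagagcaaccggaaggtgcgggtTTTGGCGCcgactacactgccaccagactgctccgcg
Chek1: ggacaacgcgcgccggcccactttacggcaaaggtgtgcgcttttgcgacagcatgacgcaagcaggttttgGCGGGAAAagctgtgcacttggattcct
Mcm7: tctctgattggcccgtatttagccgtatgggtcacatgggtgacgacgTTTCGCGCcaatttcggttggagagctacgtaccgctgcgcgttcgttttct
Pole4: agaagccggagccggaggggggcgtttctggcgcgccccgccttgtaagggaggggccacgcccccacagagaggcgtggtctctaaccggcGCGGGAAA

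On GRCr8 these stretches lie at chr4:122918095-122918194 for Mcm2, chr12:22163179-22163278 for Mcm7, chr4:116728852-116728951 for Pole4, chr9:120776084-120776183 for Tyms, chr8:44629844-44629943 for Chek1 and chr19:9434680-9434779 for Gins3, all on the minus strand. Those of Mcm5, at chr19:13488713-13488812, and of Gins1, at chr3:160184820-160184919, lie on the plus strand. The windows of Mcm5 and Mcm6 held a further overlapping pair of E2F words farther from the start, as the plot of letter positions shows.

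**Figure D1:**
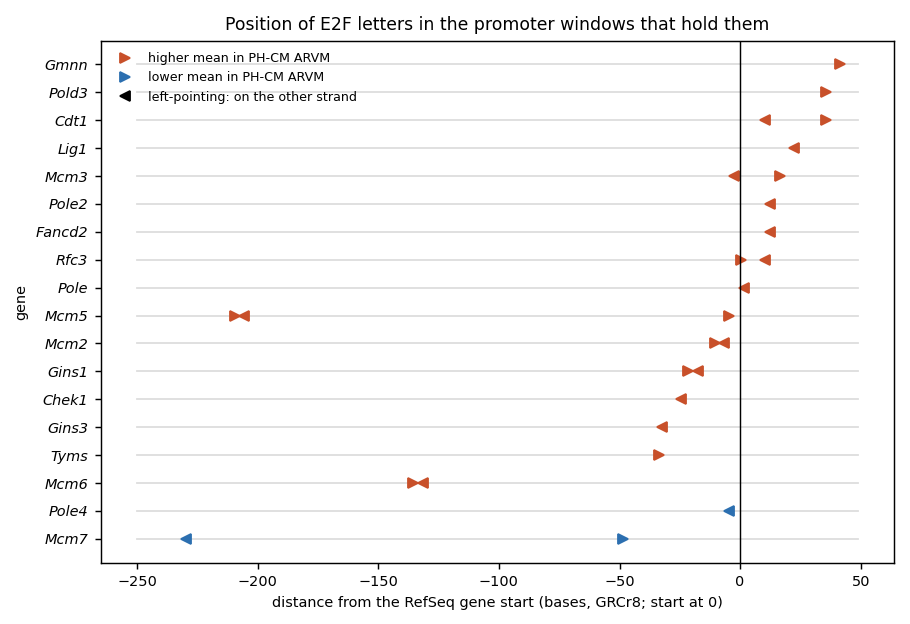
Position of each E2F word in the 18 rat promoter windows that hold 1, as the distance in bases from the RefSeq gene start (x axis) for each gene (y axis), in orange for members with a higher mean and in blue for members with a lower mean in PH-CM ARVM. Most of the words lie within 60 bases of the start, and the exceptions are the pairs in Mcm5 and Mcm6 and 1 word in Mcm7.

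In ARVM the replication and repair genes moved mostly toward higher levels in PH-CM. Of the 56 members, 49 rose, 6 fell (E2f6, Uhrf1bp1l, Pole4, Mcm7, Pola2 and E2f4) and 1, Cdt1, did not pass (limma on log2(normalized count + 1), adjusted p under 0.05 over all listed genes). The background was high, since 97.6% of all listed ARVM genes passed, 53.9% as higher and 43.7% as lower. The median log2 change was 1.17 over the members and 0.37 over all listed genes. A rise of at least 1 on the log2 scale was called for 34 members, against 32.3% of all listed genes, and a fall of that size for 2, against 16.0%. Without Uhrf1bp1l, 49 of 55 rose and 5 fell, 1 of them by at least 1, with a median log2 change of 1.18. The values of the groups did not overlap for any of the 56 members, which was so for 100% of the listed genes.

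The PH-CM libraries also differed from the fresh ones in genes taken as markers of cell types. All 13 listed fibroblast markers were higher in PH-CM, with a summed level of 4405 to 5425 normalized counts in fresh and 100925 to 148584 in PH-CM libraries, and Mfap5 had 0 reads in every fresh library, Thy1 in 2 and Fbln1 in 1. All 11 listed macrophage markers were higher, from 253 to 362 up to 7952 to 11801, while 12 of 13 cardiomyocyte markers were lower, with a sum near 1.42e+06 in fresh and 188360 to 230592 in PH-CM libraries, Myh7 being the exception. Endothelial markers were lower for 9 of 10. Of the 10 listed genes taken as smooth muscle and pericyte markers, 7 were higher and 3 lower (Des, Cspg4 and Rgs5). Des is also a gene of cardiomyocytes, so in these libraries it does not mark smooth muscle or pericytes alone. Their summed level was 68649 to 75811 in fresh and 86110 to 93232 in PH-CM libraries. Des made up most of the fresh sum, with a mean of 67582 in fresh and 45309 in PH-CM libraries. The sum therefore hides larger rises of other markers, such as Tagln, from a mean of 257 to 21540, and Acta2, from 293 to 10008. All 4 listed erythroid markers were lower, and Hba1, Hbb and Hbb-b1 had 0 reads in every PH-CM library. The paper reports α-smooth muscle actin, the product of Acta2, and periostin, the product of the listed fibroblast marker Postn, in PH-CM treated myocytes. In bulk RNA, more cells of a type cannot be told apart from more RNA per cell or from expression by myocytes. The part of these differences in the results on replication genes was not tested.

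**Figure D2:**
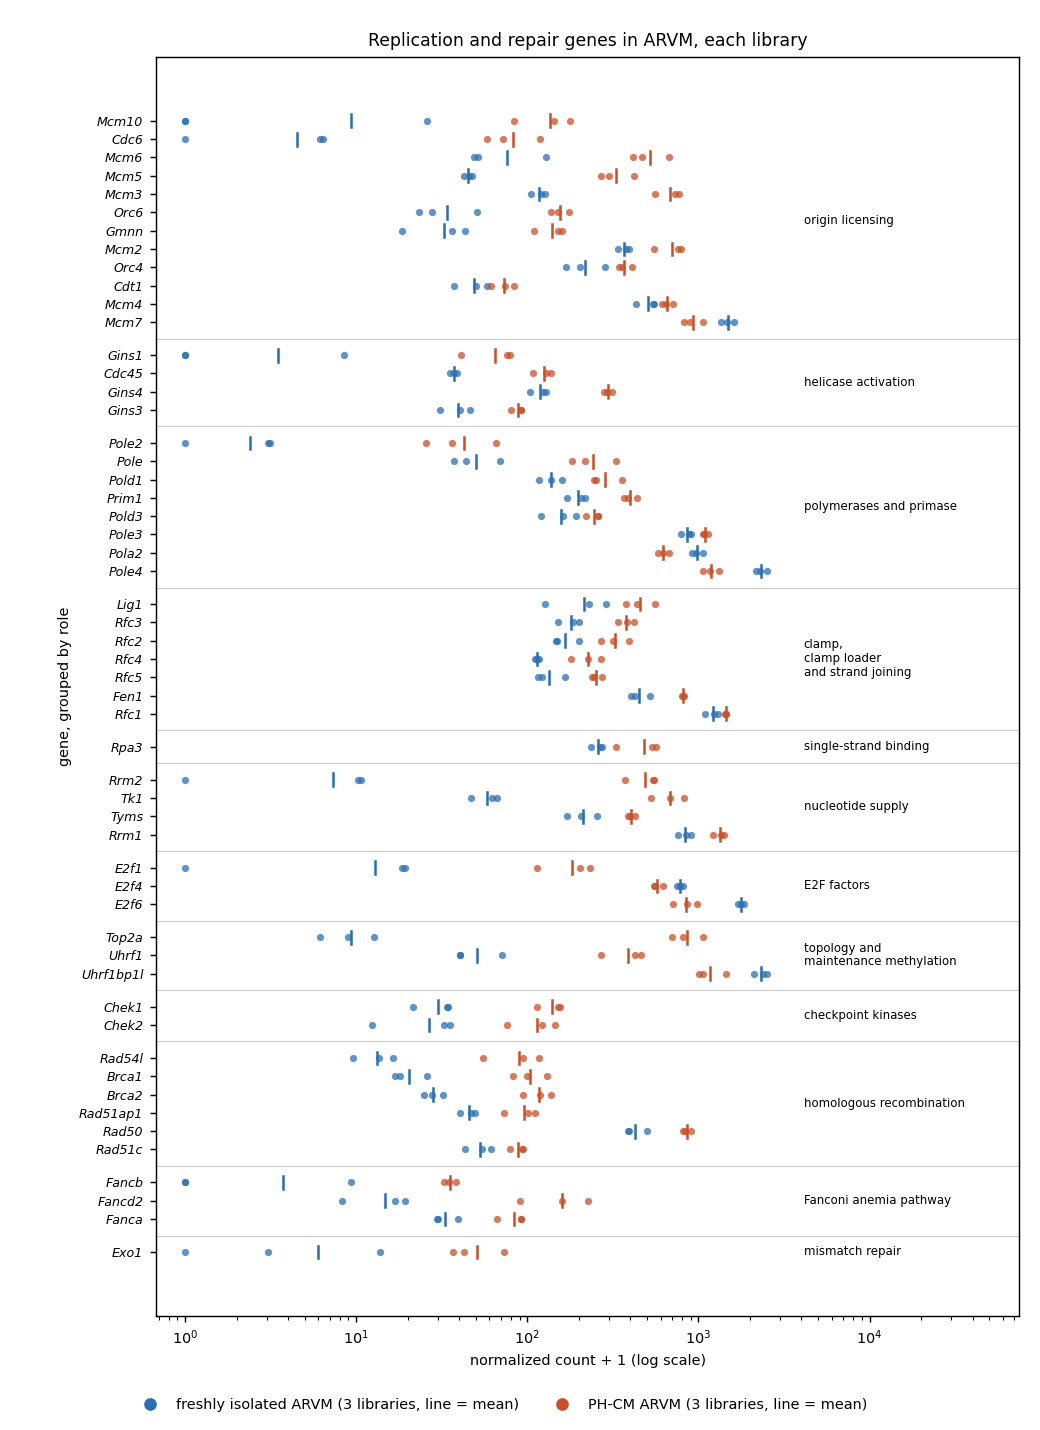
Normalized count + 1 (x axis, log scale) of 54 members in each ARVM library, by role (y axis), in blue for 3 freshly isolated and in orange for 3 PH-CM libraries, with short lines at the group means. Orange points lie to the right of the blue ones except in Mcm7, Pola2, Pole4, E2f4, E2f6 and Uhrf1bp1l.

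The licensing factors rose together with 2 exceptions. Of 12 listed, 10 rose, Mcm7 fell and Cdt1 did not pass, with a median log2 change of 2.22. Mcm5, a subunit of the MCM ring, had 44.3, 41.8 and 46.5 normalized counts in fresh con4, con5 and con6 and 298, 269 and 417 in PH-CM ha2, ha209 and ha211. The 2 ranges were far apart and PH-CM ha211 was the highest (log2 change 2.84 ± 0.23, SE, limma adjusted p = 1.35e-05, n = 3 per group). Mcm3, another subunit, went from 127, 104 and 119 to 728, 557 and 768, a log2 change of 2.54 ± 0.17. Mcm6 had 128, 50.3 and 47.5 in fresh and 468, 412 and 671 in PH-CM libraries, so that fresh con4 stood above the other two, and the log2 change was 2.89 ± 0.39. Mcm2 rose by less, from 368 ± 28.7 (SD) to 699 ± 130, and Mcm4 by the least, from 505 ± 65.6 to 655 ± 49.6. The call of Mcm4 (log2 change 0.38, limma adjusted p = 0.0169) was lost without PH-CM ha211, at 0.0612.

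Mcm7 was the single subunit of the ring that fell. It had 1614, 1350 and 1475 normalized counts in fresh and 897, 823 and 1069 in PH-CM libraries. Every PH-CM library lay below every fresh one, a separation that all listed ARVM genes shared (log2 change −0.67 ± 0.11, limma adjusted p = 0.000727). The log2 change stayed between −0.78 and −0.59 over the alternatives tried. In the annotation Mcm7 contains the genes of 3 miRNAs, Mir25, Mir93 and Mir106b, and whether the counting used strand is not given in the sources used here.

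Cdc6, the loader of the ring, had 0, 5.36 and 5.17 normalized counts in fresh and 71.1, 56.9 and 118 in PH-CM libraries. The fresh values rest on 10 reads in all, and the log2 change was 4.54 ± 0.74 (limma adjusted p = 0.000635) and lay between 2.74 and 5.78 over the alternatives. Mcm10, which is needed to start the loaded helicase, had 0 in fresh con4 and con5 and 24.8 in fresh con6, against 142, 82.8 and 177 in PH-CM. Its log2 change of 5.45 ± 1.19 passed with limma (adjusted p = 0.00293) and missed the threshold with DESeq2 on the recovered reads, at 0.0533. It ranged from 3.19 to 7.67 over the alternatives and was 7.01 without fresh con6. Cdt1, the partner of CDC6 in loading, had 57.0, 49.3 and 36.2 in fresh and 73.4, 60.4 and 82.1 in PH-CM libraries. The log2 change of Cdt1 was 0.60 ± 0.28 (limma adjusted p = 0.0662), and it passed without fresh con4 (0.0400), with a pseudocount of 10 (0.0416) and with eBayes without a trend (0.0299). Geminin (Gmnn), the inhibitor of CDT1, rose from 31.7 ± 12.9 to 139 ± 27.4, and the origin recognition subunits Orc6 and Orc4 rose by 2.27 and 0.79 on the log2 scale.

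All 4 listed genes of helicase activation rose. Gins1, a GINS subunit, had 0, 7.50 and 0 normalized counts in fresh and 74.9, 39.7 and 77.9 in PH-CM libraries (log2 change 4.94 ± 0.84, limma adjusted p = 0.000804). Only 7 reads stand behind the fresh values, and the log2 change ranged from 2.58 to 7.18 over the alternatives, mainly with the pseudocount. Cdc45 rested on more reads and rose from 36.1 ± 1.85 to 124 ± 15.4, and Gins4 and Gins3 rose by 1.32 and 1.18 on the log2 scale.

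Of the 8 listed polymerase and primase genes, 6 rose and 2 fell, with a median log2 change of 0.83. The members of 1 enzyme did not move one way. In DNA polymerase epsilon, which copies the leading strand, the catalytic gene Pole had 68.1, 42.8 and 36.2 in fresh and 215, 181 and 328 in PH-CM libraries (log2 change 2.28 ± 0.32, limma adjusted p = 0.000314). Pole2, its second subunit, had 0, 2.14 and 2.07 against 64.3, 35.4 and 24.5, with 4 reads in the fresh libraries together and log2 changes between 2.10 and 5.61 over the alternatives. The histone-fold subunit Pole3 rose by 0.35, whereas its partner Pole4 went from 2298, 2529 and 2175 to 1309, 1059 and 1162 (log2 change −0.99 ± 0.09, limma adjusted p = 3.58e-05). Pole4 was thus lower in every PH-CM library than in any fresh one, and all listed ARVM genes were separated in this way.

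Pola2, the accessory subunit of DNA polymerase alpha that accompanies primase, had 921, 966 and 1066 normalized counts in fresh and 617, 577 and 669 in PH-CM libraries. The log2 change was −0.66 ± 0.09 (limma adjusted p = 0.000285). Prim1, the catalytic subunit of primase, went the other way, from 197 ± 24.8 to 397 ± 33.9. The delta subunits Pold1 and Pold3 rose by 1.03 and 0.65, and the call of Pold3 was lost without PH-CM ha2 (limma adjusted p = 0.0578) or without PH-CM ha209 (0.0503).

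All 7 listed genes of the clamp loader and of strand joining rose, by a median of 0.96 on the log2 scale and by 0.25 to 1.15. They were Rfc1 to Rfc5, which open the clamp, Fen1, which trims the flap of an Okazaki fragment, and Lig1, which seals the nick. Lig1 had 127, 228 and 286 in fresh and 439, 375 and 553 in PH-CM libraries, the largest log2 change of the 7 at 1.15 ± 0.30. Rfc3, Rfc2, Rfc4 and Rfc5 lay between 0.93 and 1.09, and Rfc1, at 0.25, changed least. Rpa3, the only listed subunit of the single-strand binding protein, rose from 257 ± 20.1 to 477 ± 129 (log2 change 0.85, limma adjusted p = 0.00558).

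In deoxynucleotide supply, Rrm2, the S phase subunit of ribonucleotide reductase, had 0, 9.64 and 9.30 normalized counts in fresh and 549, 370 and 544 in PH-CM libraries. The fresh libraries held 18 reads of Rrm2 together, and the log2 change was 6.65 ± 0.86 (limma adjusted p = 0.000193), between 4.97 and 7.84 over the alternatives. Its partner subunit Rrm1 rose from 837 ± 72.8 to 1331 ± 105, a log2 change of 0.67. Tk1, the thymidine kinase of dividing cells, had 45.9, 65.3 and 60.9 against 678, 528 and 823 (log2 change 3.53 ± 0.22, limma adjusted p = 4.15e-06). Tyms, which makes thymidylate, rose by 0.96 on the log2 scale.

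The 3 listed E2F factors, of 8 in the rat annotation, split by member. E2f1 had 0, 18.2 and 17.6 normalized counts in fresh and 231, 112 and 202 in PH-CM libraries (log2 change 4.62 ± 1.08, limma adjusted p = 0.00405). Its log2 change was 3.21 without fresh con4, the library at 0, and lay between 3.21 and 5.77 over the alternatives. E2f6 had 1711, 1780 and 1840 against 975, 853 and 705 (−1.08 ± 0.11, limma adjusted p = 6.55e-05), and E2f4 had 747, 807 and 781 against 557, 545 and 621 (−0.44 ± 0.09, limma adjusted p = 0.00185). Among these 3, the gene known as an activator was thus higher and both genes known as repressors lower in PH-CM. E2f2, E2f3, E2f5, E2f7 and E2f8 were not listed, so their direction is not known. E2f6 overlaps Greb1 in the annotation, so reads of the 2 genes may not be separable.

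Top2a, the topoisomerase that untangles replicated chromosomes, had 7.91, 11.8 and 5.17 in fresh and 814, 696 and 1068 in PH-CM libraries (log2 change 6.57 ± 0.32, limma adjusted p = 1.12e-06). No fresh library was at 0 reads for Top2a, and the PH-CM mean was 104 times the fresh mean. Uhrf1, which guides maintenance methylation at the fork, rose from 49.5 ± 17.4 to 384 ± 101 (log2 change 2.95). Uhrf1bp1l fell from 2332 ± 215 to 1173 ± 245.

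The checkpoint and repair members all rose, 14 of 14. Chek1, the kinase that answers stalled forks, had 20.6, 33.2 and 33.1 normalized counts in fresh and 150, 112 and 154 in PH-CM libraries (log2 change 2.24 ± 0.29, limma adjusted p = 0.000202), and Chek2 rose by 2.18. Brca1, which promotes end resection, rose from 19.3 ± 4.84 to 103 ± 24.1, Brca2, a mediator of homologous recombination, from 27.2 ± 3.64 to 116 ± 21.3, and Rad54l, a motor protein of the same pathway, from 12.2 ± 3.48 to 87.8 ± 31.1. All 7 listed recombination genes rose, by a median of 2.05 on the log2 scale. Rad51c, which rose by 0.75, lost its call without PH-CM ha2 (limma adjusted p = 0.0533) or without PH-CM ha211 (0.0550).

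Among the Fanconi genes, Fancd2, the protein whose ubiquitination marks a crosslinked fork, had 15.8, 18.2 and 7.23 in fresh and 158, 89.7 and 226 in PH-CM libraries (log2 change 3.42 ± 0.46, limma adjusted p = 0.000237). Fancb had 0 in fresh con4 and con5 and 8.26 in fresh con6, against 31.8, 37.1 and 33.9, and Fanca, like Fancb a core complex member, rose by 1.34. In mismatch repair, the exonuclease gene Exo1 had 0, 12.9 and 2.07 against 35.5, 41.4 and 71.9 (log2 change 3.79 ± 0.88). Over the alternatives the log2 change ranged from 2.04 to 5.07 for Exo1 and from 1.85 to 6.29 for Fancb. Fancd2 and its annotated neighbour Fancd2os overlap, as do Rrm2 and Cys1. Other members also overlap a protein-coding gene in the annotation. They are Pole2 (Klhdc1), Uhrf1 (Arrdc5), Fanca (Zfp276), Fen1 (Tmem258), Lig1 (Zswim9), Rad54l (Lrrc41), Brca2 (N4bp2l1) and Orc4 (Acvr2a and Mbd5).

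The largest log2 changes rested on few fresh reads. Of the 50 members with a higher PH-CM mean, 26 had a fresh mean under 50 normalized counts and 9 had a fresh library at 0 reads. Fresh con4, the library with the fewest recovered reads on listed genes (12122463, against 15939590 to 18842171 in the others), had 0 reads in 8 members, and fresh con5 and con6 in 2 each. No PH-CM library had a member at 0, and the lowest PH-CM value of any member was 24.5. The edgeR quasi-likelihood test on the reads called 49 members higher and 6 lower, as limma did, with every member on its own side of the threshold in both.

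Summed over all 56 members, the level was 17630, 17395 and 17509 normalized counts in fresh and 23384, 20783 and 24936 in PH-CM libraries. Split by the direction of the difference itself, the sum over the 50 members with a higher mean was 7957, 7867 and 7654 normalized counts in fresh and 17969, 15470 and 19705 in PH-CM libraries. Over the 6 members that fell it was 9673, 9528 and 9855 against 5415, 5313 and 5231. This sum includes Uhrf1bp1l, with means of 2332 in fresh and 1173 in PH-CM libraries. PH-CM ha209 was the lowest of its group and PH-CM ha211 the highest in the first sum. By gene, PH-CM ha209 was the lowest PH-CM library in 40 of the 50 (80%), against 52.5% of all listed genes with a higher mean, and PH-CM ha211 was the highest in 36 (72%), against 50.6%. The summed fibroblast and macrophage markers had the same order, with PH-CM ha209 lowest and PH-CM ha211 highest, and their part in this order was not tested. The median coefficient of variation per gene in PH-CM was 18.1% for the members and 10.1% for all listed genes.

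**Figure D3:**
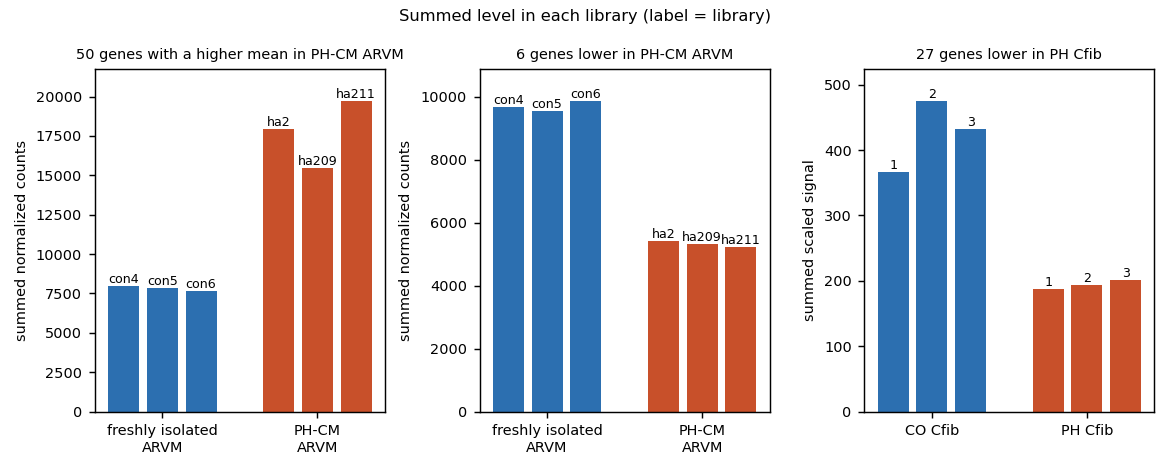
Summed level in each library (y axis, normalized counts for ARVM and length-scaled signal for Cfib) of the 50 members with a higher mean in PH-CM ARVM, the 6 that fell there and the 27 that fell in PH Cfib, with blue bars for control and orange bars for PH-CM or PH libraries. Genes were put in panels by the direction of their own difference, which sets the order of the groups in each panel, and PH-CM ha209 is the lowest and PH-CM ha211 the highest PH-CM bar of the left panel.

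In Cfib the same kind of gene was lower in PH. All 28 listed members passed, 27 as lower and 1, RAD52, as higher, on log2 of a length- and library-scaled signal + 1. The background was 97.5% of all listed Cfib genes called, 39.4% as lower and 58.2% as higher. The median log2 change was −0.97 over the members and 0.33 over all listed genes. A fall of at least 1 was called for 13 members, against 14.3% of all listed genes, and a rise of that size for 0, against 19.7%. Rescaling by the median of ratios over listed genes shifted the log2 changes by a median of −0.27, which made the falls larger and left 27 members called lower. The values of the groups did not overlap for any member, which was so for 100% of the listed Cfib genes.

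The nucleotide supply genes RRM2 and TK1 were lower. RRM2 had a signal of 32.7, 51.6 and 38.6 in CO Cfib 1, 2 and 3 and of 3.96, 4.06 and 4.01 in PH Cfib 1, 2 and 3. The CO mean was 10.2 times the PH mean (log2 change −3.04 ± 0.16, SE, limma adjusted p = 1.23e-05, n = 3 per group). TK1 had 20.6, 28.4 and 35.8 against 9.07, 9.37 and 10.7 (log2 change −1.42 ± 0.19). In both genes the CO libraries differed among themselves by far more than the PH libraries did.

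All 7 listed licensing genes fell, by a median of −1.23. MCM5 had 17.0, 26.1 and 17.1 in CO and 4.06, 4.24 and 4.52 in PH Cfib (log2 change −1.97 ± 0.17, limma adjusted p = 8.80e-05), and MCM3 had 19.5, 30.3 and 24.1 against 7.37, 7.62 and 8.29. MCM7 had 41.8, 53.6 and 59.7 against 25.9, 26.9 and 27.7 (log2 change −0.91 ± 0.13), so that the 3 listed subunits of the MCM ring were all lower. CDC6 had 3.42, 6.34 and 5.14 against 0.575, 0.678 and 0.698 (log2 change −1.82 ± 0.18, limma adjusted p = 0.000171). For CDC6 and the other members with a PH mean under 1, which were 5 in all, the added pseudocount makes the log2 change smaller than the ratio of the means. That ratio was 7.63 for CDC6 and 4.95 for ORC1, the largest subunit of the origin recognition complex.

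All 5 listed polymerase and primase genes fell. POLE2 had 3.59, 5.20 and 5.66 in CO and 0.894, 0.810 and 0.758 in PH Cfib (log2 change −1.66 ± 0.15, limma adjusted p = 0.000107), and POLA2 had 7.83, 9.78 and 10.8 against 4.35, 3.95 and 4.66 (−0.97 ± 0.13). The primase genes PRIM2 and PRIM1 and the delta subunit POLD3 had smaller log2 changes of −0.59, −0.44 and −0.42. RFC4 went from 14.0 ± 3.54 (SD) to 4.97 ± 0.846, RFC5 from 22.3 ± 1.99 to 15.6 ± 0.409, and RPA1, the large subunit of the single-strand binding protein, from 81.8 ± 11.4 to 54.9 ± 2.65.

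Among the repair genes of Cfib, FANCD2 had 7.10, 9.44 and 7.34 in CO and 0.754, 0.866 and 1.02 in PH Cfib (log2 change −2.25 ± 0.12, limma adjusted p = 1.54e-05). FANCI, its partner in the ubiquitinated complex, had 9.96, 12.3 and 8.98 against 3.69, 3.53 and 3.89 (−1.27 ± 0.12), and FANCA fell by 0.45 on the log2 scale. RAD54L went from 6.70 ± 1.68 to 1.94 ± 0.461, EXO1 from 1.66 ± 0.530 to 0.214 ± 0.0304, and the checkpoint kinase CHEK1 from 9.12 ± 0.895 to 4.96 ± 0.371.

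RAD52, a mediator of strand annealing, was the exception among the recombination genes. It had 9.54, 9.38 and 9.43 in CO and 11.2, 11.2 and 11.5 in PH Cfib (log2 change 0.23 ± 0.06, limma adjusted p = 0.0107). After rescaling by the median of ratios its log2 change was −0.030 (limma adjusted p = 0.676), so its direction is set by the scaling. RAD51B, which fell by 0.32 on the log2 scale, lost its call without PH Cfib 2 (limma adjusted p = 0.0591).

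**Figure D4:**
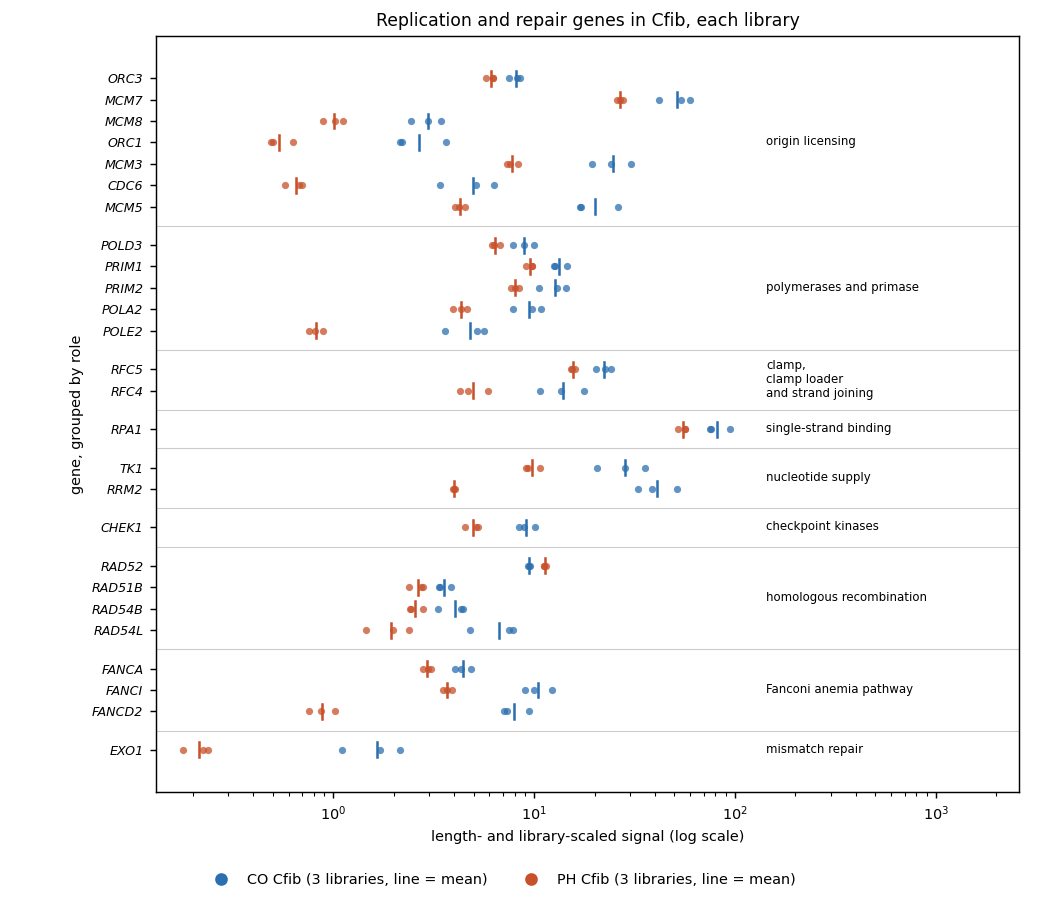
Length- and library-scaled signal (x axis, log scale) of 26 members in each Cfib library, by role (y axis), in blue for 3 CO and in orange for 3 PH libraries, with short lines at the group means. Orange points lie to the left of the blue ones in 25 genes and to the right in RAD52, and the PH libraries lie closer together than the CO libraries.

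The PH Cfib libraries were close to each other. The median coefficient of variation per member was 5.79% in PH and 16.3% in CO Cfib, and over all listed genes it was 5.01% and 13.7%. With the 3 PH libraries averaged into 1 sample, 17 of the 28 members and 1038 of all 2115 listed genes were called. Summed over all 28 members the signal was 375, 484 and 442 in CO and 199, 206 and 213 in PH Cfib, and over the 27 that fell it was 366, 475 and 432 in CO and 188, 194 and 202 in PH Cfib. Proliferation markers outside the pattern, such as CCNB1 and CDC20, were lower for 14 of 15 listed in PH Cfib, and in ARVM 16 of 19 were higher and 3 lower. All 5 listed fibroblast markers were higher in PH Cfib and no cardiomyocyte marker was listed. Of the 6 listed smooth muscle and pericyte markers 5 were higher, with a summed signal of 118 to 152 in CO and 256 to 264 in PH Cfib, and CNN1 was lower. Of the 4 macrophage markers 3 were higher, C1QA and C1QB being listed at 0 in every CO library, and CD14 was lower, as was the endothelial marker ESAM. The part of these markers in the results on replication genes was not tested.

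Of the 19 genes listed in both tables, 17 were higher in PH-CM ARVM and lower in PH Cfib, and Mcm7 and Pola2 were lower in both. Among all 1178 genes in both tables, 323 (27.4%) were higher in PH-CM ARVM and lower in PH Cfib. The 2 tables share no sample, differ in species and scale, and were not tested against each other. On the log2 scale of each table, Rrm2 had 6.65 in ARVM and −3.04 in Cfib, Fancd2 3.42 and −2.25, Mcm5 2.84 and −1.97, and Cdc6 4.54 and −1.82. Pold3 had 0.65 and −0.42 and Prim1 1.01 and −0.44, whereas Rfc4 had 0.96 in ARVM with −1.31 in Cfib.

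**Figure D5:**
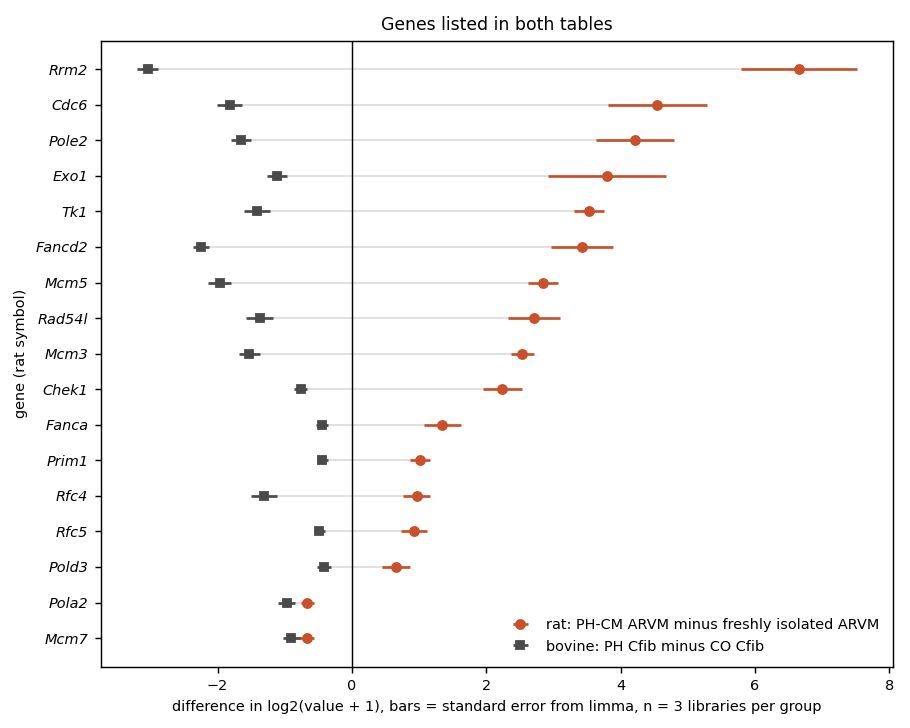
Difference in log2(value + 1) (x axis) for 17 of the genes listed in both tables (y axis), with orange circles for PH-CM minus freshly isolated ARVM, dark squares for PH minus CO Cfib, and bars for the standard error from limma with 3 libraries per group. The marks lie on opposite sides of 0 for 15 genes and both lie below 0 for Pola2 and Mcm7.

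The rest of the replication and repair pathway was taken from 10 further lists of 178 symbols. In ARVM 87 of them were listed, of which 55 rose, 29 fell and 3 did not pass, against 53.9% of all listed genes called higher and 43.7% lower. Their median log2 change was 0.43, and all listed genes had 0.37. Of the other fork and chromatin assembly genes 16 of 18 rose, with a median of 1.72. Both medians are the same with the genes at 0 reads in all fresh libraries set to their bound. Clspn, the adaptor through which CHEK1 is activated, had 0 reads in every fresh library and 126, 54.4 and 112 normalized counts in PH-CM libraries, at least 79.3-fold higher against a floor of 3 reads over the fresh group. The remodeler Hells had 7.91, 0 and 0 in fresh, from 5 reads, and 126, 93.2 and 167 in PH-CM libraries. A list of pocket proteins, E2F partners and related cell cycle regulators had 4 of 5 higher (Rbl1, Tfdp1, Mybl2 and Foxm1) and Lin54 lower. Its member Mybl2 had 25.3, 4.28 and 0 in fresh and 143, 110 and 222 in PH-CM libraries.

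The 2 listed end joining genes, Xrcc5 and Xrcc6, rose in ARVM by 0.67 and 1.43 on the log2 scale. Of the purine, pyrimidine and deoxynucleotide genes outside the pattern, 7 rose and 10 fell of 18 listed, with Dctd (3.18) highest and Dguok (−0.94), of mitochondrial deoxynucleotide salvage, lowest. A list of translesion and other polymerases with related genes had 4 higher (Polq, Rad18, Polm and Poll) and 4 lower (Rev1, Rev3l, Polg2 and Mad2l2). Their log2 changes ran from 2.35 for Polq to −0.90 for Rev1. Base excision genes rose for 8 of 11, with Parp1, Lig3 and Apex1 lower. In Cfib 31 of the 178 symbols were listed, of which 25 were lower and 6 higher, against 39.4% and 58.2% of all listed genes, with a median of −0.56. All 8 listed fork genes were lower there, led by ESCO2 (−2.70) and ASF1B (−2.69).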

How the data were processed

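RNA of 12 libraries was isolated, depleted of ribosomal RNA and sequenced by the authors. The submitters' processing notes name HISAT2, StringTie and DESeq2 and the builds rn6 and bosTau8. The authors kept genes by an expression minimum and a p-value, so each table holds selected genes only, and p-values were adjusted over those. Each adjusted p-value given here therefore comes after a selection on the same libraries, and it is not an error rate over all expressed genes.

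For ARVM the deposited signal is a read count over a size factor of its library. All values (100%) came out as whole reads within 0.01 reads, and the smallest value of PH-CM ha211 stands for 2 reads. For Cfib the deposited signal looks length-scaled and library-scaled, its unit was not settled, and its depth is unknown.

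Each table was fitted alone with limma 3.58.1 in R 4.3.3, on log2(value + 1) and with a mean-variance trend. Calls were made at 0.05 after Benjamini-Hochberg adjustment over every gene of the table. This replaced the unequal-variance test of the study, which does not suit 3 values per group, and an exact permutation test of 3 against 3 cannot go below 0.1. On the recovered ARVM reads, edgeR 4.0.16 and DESeq2 1.42.0 were run as alternatives. The others were a pseudocount of 0.1 or 10, a minimum mean of 50 (ARVM) or 5 (Cfib), each library left out, eBayes without a trend, median-of-ratios rescaling, a replicate block (Cfib), the PH Cfib libraries averaged and a minimum log2 change of 1. The fits were tested on simulated data in which most genes did not differ, unlike in these selected tables, so that test does not cover the selection. Tables and plots were made with Python 3.11.15.

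Named members were, in each role and table, up to 3 with the largest change, those in both tables, those against the main direction and those that did not pass, and others are named where they complete a complex or a promoter set. The members and lists were chosen with earlier results of these data known. Promoters were found by symbol for 43 of 56 ARVM members, in RefSeq on GRCr8, and overlapping genes were taken from the same annotation. The authors' columns of fold changes and p-values were not used. Values of some single genes are not reported here or drawn in the plots by gene, although the counts include them.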

Additional observations from a re-analysis of the deposited data

How the results depend on the processing

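With a minimum log2 change of 1, 36 ARVM members were called, 2 of them lower, with 29 other pathway genes and 3405 of all ARVM genes, and 13 Cfib members, 13 lower and 0 higher, with 9 other pathway genes and 720 of all Cfib genes. With a minimum mean of 5, 18 Cfib members were tested and all 18 called, 17 as lower. With the median of ratios, 0 Cfib members were called higher, RAD52 reversed to −0.030, and the summed level of the Cfib members was −1.37 as log2 of PH over CO, against −1.07. With the PH Cfib libraries averaged into 1 sample, 17 members were called, 17 lower and 0 higher, with 20 other pathway genes and 1038 of all Cfib genes, in a design with fewer samples. The cause of the other differences was not tested.

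With single libraries left out, 53 to 56 ARVM members were called (47 to 50 higher, 6 lower) and 27 to 28 Cfib members (26 to 27 lower, 1 higher). Of all ARVM genes 6452 to 6695 were called then, and of all Cfib genes 1910 to 2052. Over single members and alternatives, 713 ARVM values kept their call and direction, 6 lost and 3 gained it, and 341 Cfib values kept it, 12 lost it and 1 reversed.

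The replicate numbers 1 to 3 are shared between CO and PH Cfib. Deviations of equally numbered libraries correlated at 0.258, 0.0312 and 0.259, and replicate 2 correlated better with another number (0.102), so the numbers were not taken as pairs. The replicate block called 28 members, 30 other pathway genes and 1983 of all Cfib genes and changed no call of a member. No paired analysis was possible for ARVM because the groups share no replicate number.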
